A study of Mus musculus with 20 samples.

Results

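Integrins and the matrix proteins they bind were followed across 20 bulk RNA-Seq libraries of whole mouse retinas as 10 genes: the subunits Itgb3, Itgav, Itga1, Itga5, Itga6, Itgb1, Itgb5 and Itgb8, and the ligands Fn1 and Vtn. They were selected by gene symbol out of 19716 genes listed in the deposited tables, with earlier results of the oxygen-induced retinopathy (OIR) contrast known. The FPKM values of that contrast, those of Itgb3 above all, thus helped to choose the members, and they are given as a description: no p of a member is given for it, and counts of calls stand beside those of all genes with nothing read from them. All 10 genes were listed in every library and passed the filter on low values.

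The groups held 5 libraries each. WT OIR and Atf6 KO OIR were P17 C57BL/6J mice, male and female, kept in 75% oxygen from P7 to P12 and then in room air. Atf6 KO OIR mice carried an Atf6 allele with a premature stop in every cell of the body, and WT OIR mice were Atf6+/+. PBS and Ceapin-A7 retinas came from wild-type mice at P30, without the oxygen treatment, 24 h after an intravitreal injection of 1 µL. Ceapin-A7, a small molecule that holds ATF6 in the endoplasmic reticulum, was given at 10 µM, and PBS mice received saline with DMSO. By the study's methods the control injection held more DMSO than the Ceapin-A7 solution, so solvent and inhibitor cannot be told apart. The labels name no litter or animal for a library, and by the study's methods both eyes of each P30 mouse were injected. Whether any libraries share a mouse is thus not known. The spread between libraries of a group is taken as the replicate error, and p-values hold only if the libraries are independent.

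An integrin is a dimer of an alpha and a beta subunit that spans the cell membrane and ties the cytoskeleton to the matrix outside. Itgb1 pairs with most alpha subunits, among them Itga5 (the classical fibronectin receptor), Itga1 (a collagen receptor) and Itga6 (a laminin receptor). Itgav pairs with Itgb3, Itgb5 and Itgb8, and these dimers bind ligands with an Arg-Gly-Asp motif such as fibronectin and vitronectin. Provisional matrix is the loose network of fibronectin, vitronectin and fibrin that is laid down where vessels leak or sprout, and Itgb3 with Itgav is a well-known marker of sprouting endothelium. In bulk tissue, fewer cells of a type and less RNA per cell cannot be told apart.

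Upstream sequences are shown for vitronectin and for Itgb5, a beta subunit of its receptor, because their 250 bases before the start of transcription contrast in the letters they hold. Capitals mark TATAAA and TTTATA, its overlapping reverse complement, for Vtn, and GGGCGG or its reverse complement CCGCCC for Itgb5. Both are from RefSeq on GRCm38.p6, plus strand, at chr11:78498870-78499119 for Vtn and chr16:33829415-33829664 for Itgb5.
Vtn: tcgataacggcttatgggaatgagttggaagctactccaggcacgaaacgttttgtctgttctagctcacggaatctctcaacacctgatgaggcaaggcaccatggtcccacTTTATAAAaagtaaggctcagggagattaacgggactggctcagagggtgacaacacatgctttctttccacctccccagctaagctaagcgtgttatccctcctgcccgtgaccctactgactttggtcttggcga
Itgb5: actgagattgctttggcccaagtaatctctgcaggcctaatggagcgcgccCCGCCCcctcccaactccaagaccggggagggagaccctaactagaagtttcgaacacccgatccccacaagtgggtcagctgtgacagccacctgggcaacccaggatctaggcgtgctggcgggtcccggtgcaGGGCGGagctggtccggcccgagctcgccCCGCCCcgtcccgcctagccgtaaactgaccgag
The window held 9 CpG dinucleotides and 50.4% G and C for Vtn, and 18 CpG and 65.2% for Itgb5. The TATAAA of Vtn lay 135 bases before the start. RefSeq upstream sequences were matched for 7 of the 10 members (Itgav, Itgb1, Vtn, Itgb8, Itga1, Itga5 and Itgb5). On both strands, TATAAA was found in 1 of them (Vtn) and in 12.4% of 32851 mouse windows of the same length, GGGCGG in 3 (Itga5, Itgb1 and Itgb5) and in 32.7% of all, and CCAAT in 1 (Itgb8) and in 33.8%. CCACG, the part of the ER stress response element at which ATF6 binds, was in 0 of the 7 and in 28.3% of all. The longer TGACGTGG was in 0 of the 7 and in 0.563% of all. The full element, CCAAT followed after 9 bases by CCACG, was in 0 of the 7 and in 0.113% of all. TAATCC, a core bound by photoreceptor homeobox factors that was added after the values of Vtn were seen, was in 0 of the 7 and in 6.25% of all.

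Vtn RNA was by far the most abundant of the 10. FPKM is already divided by transcript length, so levels of different genes can be set side by side. Vtn, a plasma and matrix glycoprotein that the retina also makes, had a mean of 458 ± 33.3 FPKM in WT OIR, 460 ± 42.8 in Atf6 KO OIR, 372 ± 71.9 in PBS and 447 ± 25.8 in Ceapin-A7 (SD, n = 5 each). Fn1, the fibronectin gene, was at 48.0 ± 14.8, 31.2 ± 12.9, 11.3 ± 3.76 and 8.91 ± 1.05 FPKM in the same order of groups. The level of Vtn was thus 9.54 times that of Fn1 in WT OIR and 50.2 times in Ceapin-A7. Among the receptors, Itgb1 was highest in WT OIR at 33.0 ± 5.85 FPKM, followed by Itgb5 at 22.9 ± 2.51 FPKM. Itgav, at 7.83 ± 1.45 FPKM in WT OIR, was the most abundant of the 4 alpha subunits among the members, and Itgb3, at 0.85 ± 0.304 FPKM, was the least abundant of all 10. In PBS, 2 of the 8 integrins had a mean below 1 FPKM, Itgb3 and Itga1. In Ceapin-A7, Itga5 was below 1 FPKM as well.

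**Figure D1:**
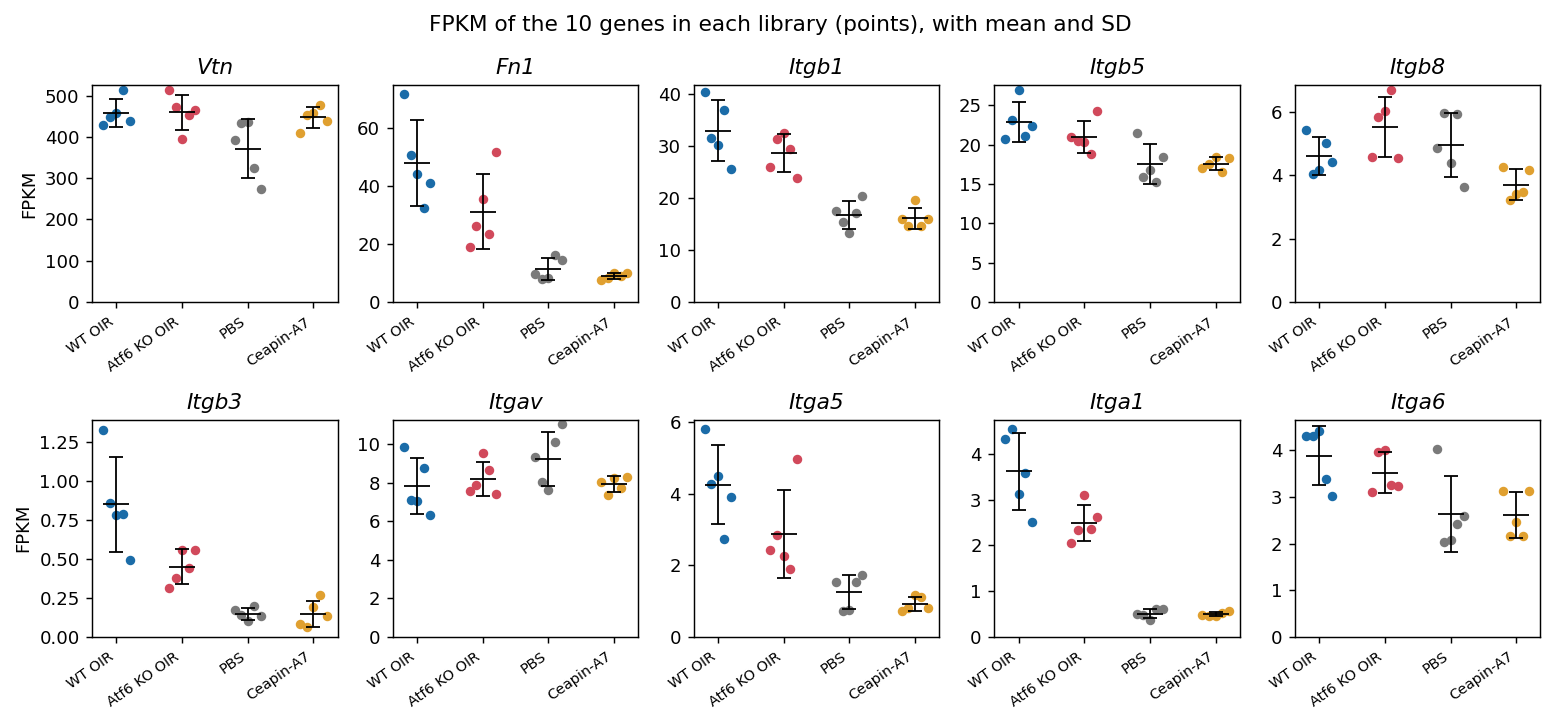
FPKM (linear axes from 0) of the 10 genes in each of 20 libraries, with points for replicates 1 to 5 from left to right and black bars for the mean and SD of a group. Fn1, Itgb1, Itgb3, Itga1 and Itga5 sit higher in each WT OIR library than in any PBS library, while Vtn, Itgav and Itgb8 overlap between these groups.

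As checks of the libraries, the FPKM of a library summed to 410599 at the lowest and 456250 at the highest. Of all genes, 2257 to 2619 were listed at 0. The value of 1 fragment, read in 24 to 42 low genes per library, gave only a rough relative depth. It was 0.714 for Ceapin-A7 replicate 3 (24 genes), 0.948 for Atf6 KO OIR replicate 4 and 1.0 for the other libraries. Low values listed to 2 decimals tie easily at 1.0, so equal depth cannot be read from it. At most 0.694% of genes above 1 FPKM had identical values in any pair of libraries of a group. Atf6 RNA was 14.9 ± 0.618 FPKM in WT OIR and 15.2 ± 1.51 FPKM in Atf6 KO OIR (SD, n = 5 each), so the amount of RNA does not check the genotype, a premature stop. Rod photoreceptor markers, 7 genes such as Gnat1 and Sag, were present in every library, as retina requires. Their summed FPKM was 7455 and 7364 in PBS replicates 4 and 5 and between 9696 and 10964 in the other PBS libraries. Many of the log2 differences, list counts and shares that rest on PBS are therefore also given without these libraries. The summed FPKM of 10 lens genes ran from 6.05 to 7265 over all libraries, and that of 8 retinal pigment epithelium genes from 17.4 to 293.

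In OIR, the question was how the retina with and without Atf6 differs at the peak of neovascularization. Of the 10 members, 7 had lower and 3 higher values in Atf6 KO OIR by their log2 differences, and all 10 overlapped between the groups. The lower values furthest from 0 were those of the beta subunit Itgb3, of fibronectin and of the alpha subunits Itga5 and Itga1. Itgb3 was listed at 1.33, 0.86, 0.78, 0.79 and 0.49 FPKM in the WT OIR libraries, and at 0.31, 0.38, 0.56, 0.44 and 0.56 FPKM in the Atf6 KO OIR libraries, both in replicate order. All but 1 WT OIR library were above every Atf6 KO OIR library, and the exception was WT OIR replicate 5, so the groups overlapped. Its mean was 1.89 times higher in WT OIR on deposited values, and its log2 difference (Atf6 KO OIR minus WT OIR, on log2(FPKM + 0.1)) was −0.74 (standard error 0.23). At this low level the added constant matters, and the difference was −0.33 with a constant of 1 and −0.85 with 0.01.

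Fn1 showed more spread. It was listed at 71.68, 50.77, 44.12, 32.31 and 41.04 FPKM in WT OIR, and at 19.04, 26.28, 35.49, 23.49 and 51.6 FPKM in Atf6 KO OIR, a log2 difference of −0.64 (standard error 0.27). The highest Atf6 KO OIR library, replicate 5, was above all WT OIR libraries but replicate 1. Itga5, which makes the fibronectin receptor with Itgb1, was listed at 5.81, 4.26, 4.49, 2.74 and 3.91 FPKM in WT OIR and at 2.42, 2.84, 2.26, 1.88 and 4.96 FPKM in Atf6 KO OIR, a log2 difference of −0.57 (standard error 0.26). As for its ligand, replicate 5 was the highest of the Atf6 KO OIR group and replicate 4 the lowest of the WT OIR group. Itga1 was listed at 4.33, 4.54, 3.13, 3.59 and 2.51 FPKM in WT OIR and at 2.05, 2.33, 3.11, 2.35 and 2.62 FPKM in Atf6 KO OIR, a log2 difference of −0.49 (standard error 0.16). The groups overlapped between 2.51 and 3.11 FPKM.

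The abundant receptor subunits differed less. Itgb1 ran from 25.59 to 40.48 FPKM in WT OIR and from 23.98 to 32.61 in Atf6 KO OIR (log2 difference −0.18, standard error 0.11). The log2 differences were −0.12 for Itga6, −0.11 for Itgb5, 0.10 for Itgav and 0.02 for Vtn, with standard errors of 0.08 to 0.12. Itgb8, which with Itgav releases active TGF-beta from its latent complex, went the other way, at 4.05 to 5.45 FPKM in WT OIR and 4.56 to 6.69 in Atf6 KO OIR (log2 difference 0.26, standard error 0.12).

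At an adjusted p under 0.05 (limma with Benjamini-Hochberg adjustment over 15704 genes), 0 of the 10 members and 5 genes in all were called, which is 0.0318% of genes. With an unadjusted p of at most 0.05 the count was 5 of 10, against 12.7% of all genes. Of these, 4 were lower in Atf6 KO OIR (5.81% of all genes) and 1 was higher (6.94%). No member had groups that did not overlap, which 1.8% of genes had. The median log2 difference of the members was −0.15, and that of all genes was 0.00. Since this contrast was known when the members were chosen, nothing is read from these counts.

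**Figure D2:**
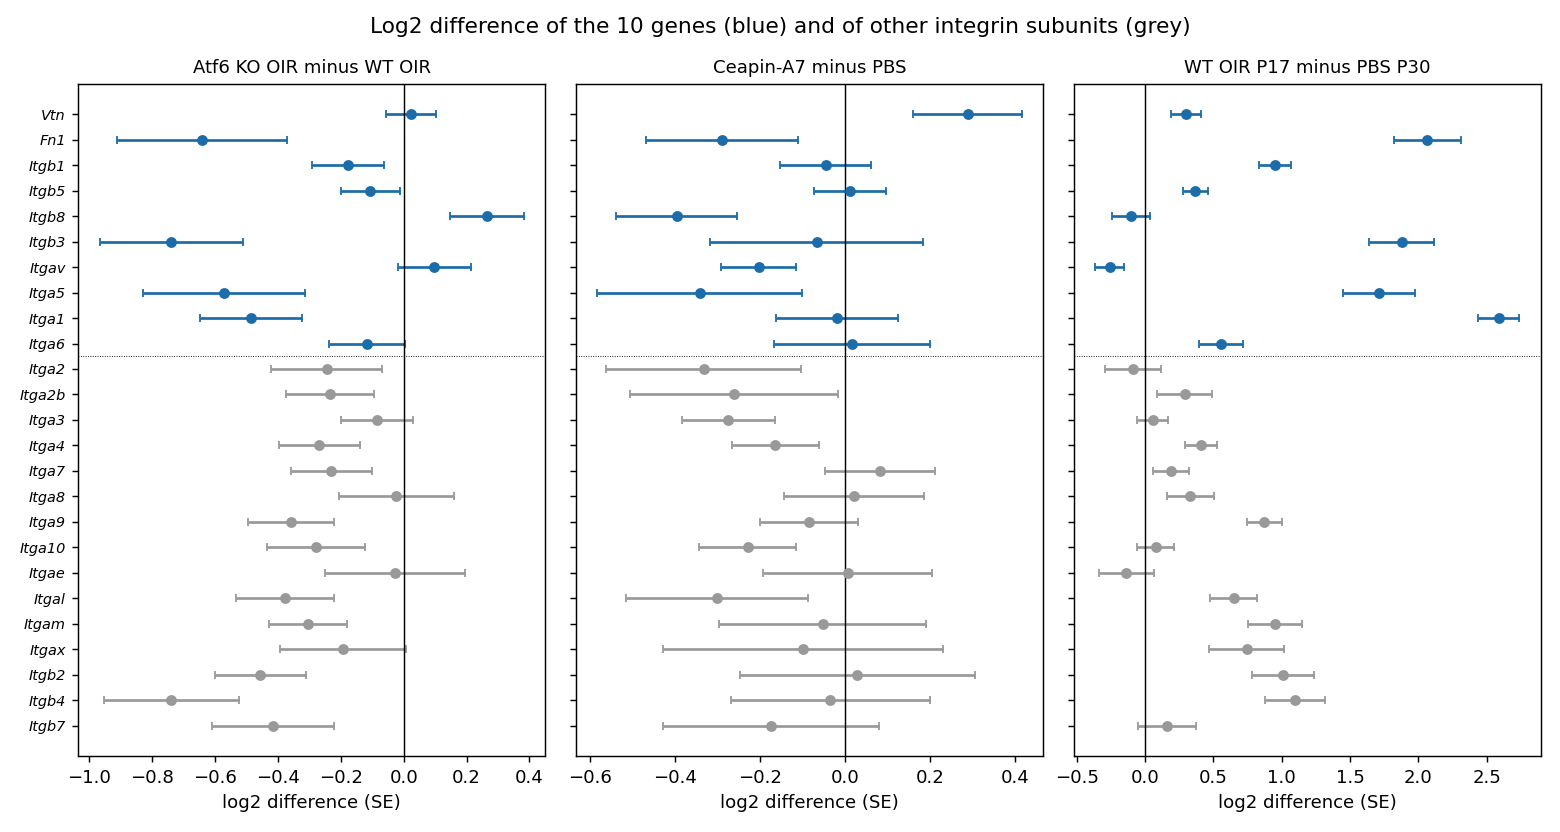
Log2 differences with standard errors (x axes, whose ranges differ between panels) of the 10 genes in blue and of 15 other integrin subunits in grey, in 3 comparisons. Itgb3, Fn1, Itga5 and Itga1 stand to the left of 0 in OIR and furthest to the right between P17 and P30, and the grey genes all stand to the left of 0 in OIR.

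The wider integrin system was covered by lists of genes that are not members. Of 18 other integrin subunits, 15 passed the filter and 3 (Itga11, Itgad and Itgb6) were too low. Of all genes tested in OIR, 50.7% had a positive log2 difference. All 15 of these subunits had a negative one, with a median of −0.27. An unadjusted p of at most 0.05 was seen for 5 of them, against 5.81% of all genes in that direction and 12.7% in both. That count was 2 without WT OIR replicate 1 or Atf6 KO OIR replicate 4. Itgb4, the partner of Itga6 in hemidesmosomes, was at 0.554 ± 0.157 FPKM in WT OIR and 0.286 ± 0.0829 in Atf6 KO OIR (log2 difference −0.74, standard error 0.21). Itgb2, the beta subunit of leukocytes, was at 1.59 ± 0.3 and 1.11 ± 0.205 FPKM (−0.46, standard error 0.14). Itga9, which binds tenascin and the EIIIA segment of fibronectin, was at 4.33 ± 0.576 and 3.33 ± 0.585 FPKM (−0.36, standard error 0.14). The list contains leukocyte subunits, and the 10 microglia and macrophage markers had 9 negative log2 differences with a median of −0.10. Of 26 activators and adaptors of adhesion, such as talin and kindlin, 25 were tested and 20 had a negative difference (median −0.11). Of these, 2 had an unadjusted p of at most 0.05, as 5.81% of all genes had in that direction. Of 20 other matrix ligands, 16 were tested and 12 had a negative difference (median −0.10). Edil3, a secreted ligand of Itgav dimers, was at 15.1 ± 1.41 FPKM in WT OIR and 18.03 ± 2.46 in Atf6 KO OIR (0.27, standard error 0.09). No gene of these 3 lists had an adjusted p under 0.05.

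Most markers of vessels also had negative log2 differences in OIR, and none had an adjusted p under 0.05 in limma. Of 10 endothelial markers, 9 had lower values in Atf6 KO OIR with a median log2 difference of −0.25, and 3 of them (Erg, Emcn and Eng) had an unadjusted p of at most 0.05, as 5.81% of all genes had in that direction. Their summed FPKM ran from 119 to 192 in WT OIR and from 110 to 165 in Atf6 KO OIR. All 8 mural cell markers had lower values, with a median of −0.50 and summed FPKM of 99.7 to 147 against 82.1 to 104. An unadjusted p of at most 0.05 was seen for 3 of them, against the same 5.81% of all genes. None of the endothelial or mural markers was at 0 in a group. Of 6 platelet markers 3 were tested, and all 3 had lower values in Atf6 KO OIR with a median of −0.23. The platelet sum ran from 18.3 to 21.7 FPKM in WT OIR and from 14.85 to 19.29 in Atf6 KO OIR. Atf6 KO OIR replicate 5, the library of its group with the highest Fn1 and Itga5, also had the highest endothelial sum of its group at 165. WT OIR replicate 4, with the lowest Fn1 and Itga5 of its group, had the lowest endothelial sum of its group at 119. WT OIR replicate 1, with the highest Fn1 and Itga5 of its group, had a sum of 159, below those of replicates 2 and 3 (187 and 192), and Atf6 KO OIR replicate 3, second in Fn1, had a sum of 118. The 7 rod markers were all higher in Atf6 KO OIR with a median of 0.09, 2 of them with an unadjusted p of at most 0.05. Of 8 pigment epithelium markers 7 were higher with a median of 1.34, 5 of them with such a p. In that direction 6.94% of all genes had one. Of 9 lens genes tested 8 were lower with a median of −2.50. All 8 had such a p, against 5.81% of all genes in that direction. The part of these cell types in the differences of the members was not tested. Log2 differences over all genes also followed transcript GC content in OIR (Spearman rho −0.464 across 15227 genes, which are not independent). After a GC trend was removed, the log2 differences of the members kept their sign in OIR.

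After Ceapin-A7 the question was whether acute inhibition of ATF6 in an otherwise untreated adult retina moves these genes. None of the 10 had an adjusted p under 0.05 (limma with Benjamini-Hochberg adjustment over 15408 genes), and 0 of all genes did, which is 0%. With an unadjusted p of at most 0.05, 3 of 10 were called, against 10.4% of all genes. Of these, 2 were lower after Ceapin-A7 (Itgb8 and Itgav; 5.31% of all genes) and 1 was higher (Vtn; 5.04%). No member had groups that did not overlap, which 1.47% of genes had. The median log2 difference of the members was −0.06, or −0.02 without PBS replicates 4 and 5, and that of all genes was 0.00.

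Itgb8 was listed at 4.87, 5.99, 4.38, 5.96 and 3.65 FPKM in PBS and at 4.28, 3.22, 3.4, 3.48 and 4.18 FPKM in Ceapin-A7. All Ceapin-A7 libraries were below every PBS library except replicate 5. The log2 difference (Ceapin-A7 minus PBS) was −0.40, with a 95% interval of −0.71 to −0.08 (adjusted p = 0.472 from limma), and it was −0.46 without PBS replicates 4 and 5. The genetic and the chemical comparison share no library, and for Itgb8 they gave differences of opposite sign, 0.26 and −0.40. That contrast between experiments was not tested.

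Itgav and Vtn, a receptor subunit and its ligand, differed in opposite directions, and in both the PBS group was the more variable. Itgav was listed at 9.37, 8.05, 7.62, 10.11 and 11.05 FPKM in PBS and between 7.35 and 8.33 FPKM in Ceapin-A7 (log2 difference −0.20, standard error 0.09, adjusted p = 0.474 from limma). Vtn was listed at 392.47, 434.43, 436.6, 324.04 and 272.7 FPKM in PBS and at 408.86, 452.96, 458.17, 478.3 and 439.01 FPKM in Ceapin-A7 (log2 difference 0.29, standard error 0.13, adjusted p = 0.476 from limma). PBS replicates 4 and 5 had the lowest Vtn and the highest Itgav of all 10 libraries of this experiment, and they were the libraries with low rod sums. Without them the log2 difference was 0.07 for Vtn and −0.08 for Itgav, and 1 member in place of 3 had an unadjusted p of at most 0.05. Rod markers were higher in Ceapin-A7 for 7 of 7 genes with a median log2 difference of 0.18, and 1 of them had an unadjusted p of at most 0.05. This was 4 of 7, with a median of 0.01, without PBS replicates 4 and 5. The part of the rods in the values of Vtn and Itgav was not tested.

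For Itgb3, Fn1, Itga5 and Itga1, the intervals of the difference after Ceapin-A7 were wide and included 0. Itgb3 was listed at 0.17, 0.14, 0.1, 0.2 and 0.13 FPKM in PBS and at 0.08, 0.06, 0.19, 0.27 and 0.13 FPKM in Ceapin-A7, close to the constant of 0.1 that was added. Its log2 difference was −0.07 with a 95% interval of −0.62 to 0.48, and at this level a change of Itgb3 was hardly measurable. Fn1 was listed at 9.49, 8.09, 8.36, 16.28 and 14.41 FPKM in PBS and between 7.45 and 9.87 FPKM in Ceapin-A7. The log2 difference was −0.29 with a 95% interval of −0.68 to 0.10, and it was 0.02 without PBS replicates 4 and 5, which held the highest values. Itga5 gave −0.34 (−0.87 to 0.18), and −0.07 without these libraries. The intervals were −0.33 to 0.29 for Itga1, −0.39 to 0.42 for Itga6, −0.28 to 0.19 for Itgb1 and −0.17 to 0.20 for Itgb5.

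Of the 15 other integrin subunits tested, 11 had lower and 4 higher values after Ceapin-A7 (median −0.10), and 1, Itga3, had an unadjusted p of at most 0.05, against 10.4% of all genes. When PBS replicates 4 and 5 were left out, 6 of 14 were lower (median 0.02) and 0 had such a p. The count ran from 0 to 3 without single libraries, and was 0 without PBS replicate 1, 4 or 5 or Ceapin-A7 replicate 2, 3 or 4 and 3 without PBS replicate 3. Of 25 activators and adaptors, 16 had lower and 9 higher values (median −0.04), and 12 and 13 without PBS replicates 4 and 5 (median 0.00). Paxillin (Pxn), a scaffold of focal adhesions, was at 23.7 ± 2.17 FPKM in PBS and 19.9 ± 0.469 in Ceapin-A7, with groups that did not overlap (log2 difference −0.24, standard error 0.05, adjusted p = 0.472 from limma), and −0.17 without PBS replicates 4 and 5. Zyx and Parvb gave −0.31 (standard error 0.12) and −0.15 (standard error 0.06), with adjusted p = 0.472 for each from limma, and −0.10 and −0.16 without these libraries. These 3 were named for the smallest unadjusted p of the 25. Only they had one of at most 0.05, as 5.31% of all genes had in that direction. Groups that did not overlap were seen for 1 of the 25 and for 1.47% of all genes. Of 16 other ligands, 10 were higher and 6 lower (median 0.09), and 9 and 7 without PBS replicates 4 and 5 (median 0.05). Egfl7, an endothelial matrix protein, was at 6.73 ± 0.812 FPKM in PBS and 7.92 ± 0.372 in Ceapin-A7 (0.24, standard error 0.08, and 0.31 without PBS replicates 4 and 5). Ccn1, a matricellular ligand of Itgav dimers, was at 4.47 ± 2.55 and 2.36 ± 0.496 FPKM (−0.73, standard error 0.32), and −0.18 without PBS replicates 4 and 5. Neither had an adjusted p under 0.05 in limma. The endothelial sum ran from 76.3 to 96.5 FPKM in PBS and from 66.8 to 82.5 in Ceapin-A7.

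Beta subunits decide which dimers Itgav can form, and their mixture was compared as shares of the summed FPKM of Itgb1 to Itgb8. Itgb1 made up 51.6 ± 4.95% in WT OIR, 50.1 ± 3.96% in Atf6 KO OIR, 41.2 ± 3.63% in PBS and 41.6 ± 2.24% in Ceapin-A7 (SD, n = 5 each). Itgb5 made up 36.2 ± 5.49%, 36.9 ± 4.88%, 43.3 ± 4.21% and 45.5 ± 2.07%. Itgb3 made up 1.31 ± 0.366%, 0.786 ± 0.182%, 0.364 ± 0.0848% and 0.378 ± 0.234%. Among the possible partners of Itgav other than Itgb1, Itgb5 and Itgb8 thus had the largest RNA shares in all groups. Which subunits share a cell or form dimers was not tested. The share of Itgb8 was 6.45 to 8.09% in WT OIR and 8.30 to 11.8% in Atf6 KO OIR, ranges that did not overlap, which is a description since the contrast was known. The shares of Itgb1, Itgb3 and Itgb5 overlapped between these groups, as did the FPKM of Itgb8. A share also depends on the sum it is taken from, which was 63.7 ± 5.88 FPKM in WT OIR and 57.1 ± 3.31 in Atf6 KO OIR. The share of Itgb8 was 12.4 ± 2.95% in PBS and 9.63 ± 1.34% in Ceapin-A7. For Ceapin-A7 against PBS, exact two-sided permutation tests over 5 and 5 libraries gave p = 0.810 for Itgb1, p = 0.929 for Itgb3, p = 0.333 for Itgb5 and p = 0.103 for Itgb8. Adjusted over these 4 tests, the smallest was 0.413, and the smallest p the test can give is 0.00794. The difference for Itgb8 was −2.78 percentage points. It was −3.78 without PBS replicate 5, with an unadjusted exact permutation p = 0.0317, and −3.31 without PBS replicates 4 and 5 (p = 0.0714, exact permutation). Leaving out these libraries gave 2.78 points in place of 0.421 for Itgb1, and −0.013 points in place of 2.19 for Itgb5.

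**Figure D3:**
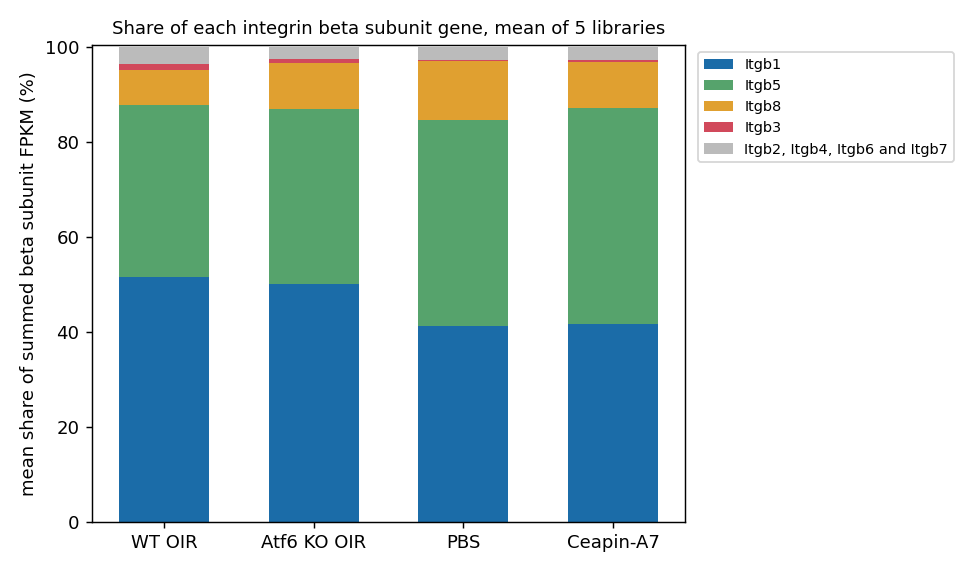
Mean share (y axis, percent, from 0) of each integrin beta subunit gene in the summed FPKM of Itgb1 to Itgb8, with 1 stacked bar per group of 5 libraries. Itgb1 and Itgb5 fill most of each bar, and the red band of Itgb3 is 1.31% in WT OIR and 0.364% in PBS.

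WT OIR at P17 was also set against PBS at P30, in a fit of all 20 libraries. It uses the WT OIR libraries of the OIR comparison and the PBS libraries of the Ceapin-A7 comparison, and age, oxygen history and injection cannot be told apart in it. Since the WT OIR values had helped to choose the members, no p of a member is given here either, and nothing is read from the counts. At an adjusted p under 0.05 (limma), 9 of 10 members were called, where 59% of 15628 genes did. Of these, 8 were higher in WT OIR (29.6% of all genes) and 1 was lower (29.4%). Of the 8, 5 had groups that did not overlap, as 19.8% of genes had in that direction. The median log2 difference was 0.76, and that of all genes was 0.01.

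Itga1 differed most. It was at 3.62 ± 0.84 FPKM in WT OIR and 0.506 ± 0.0999 in PBS (SD, n = 5 each), a log2 difference of 2.59 (standard error 0.15). Fn1 followed with 2.07 (standard error 0.25), then Itgb3 with 1.88 (standard error 0.24) and Itga5 with 1.71 (standard error 0.26). Itgb3 depended on the constant added, with 0.67 for 1 and 2.39 for 0.01. Itgb1 was higher by 0.95 (standard error 0.12), Itga6 by 0.56 and Itgb5 by 0.37. Without PBS replicates 4 and 5 these differences were 2.72 for Itga1, 2.38 for Fn1, 1.93 for Itgb3, 1.98 for Itga5, 1.05 for Itgb1, 0.52 for Itga6 and 0.31 for Itgb5.

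Vtn, Itgav and Itgb8 had the smallest differences. Vtn was higher in WT OIR by 0.30 (standard error 0.11) and Itgav lower, at −0.26 (standard error 0.11). Without PBS replicates 4 and 5 the differences were 0.08 and −0.14, and neither was called. Itgav was also not called without WT OIR replicate 2, 3 or 5, PBS replicate 1, 4 or 5, Atf6 KO OIR replicate 1 or 4, or any Ceapin-A7 library, and Vtn was not without WT OIR replicate 4, PBS replicate 4 or PBS replicate 5. Itgb8 gave −0.10 with a 95% interval of −0.39 to 0.18. The level of Itgb5 relative to that of Itgav was 2.92 in WT OIR and 1.90 in PBS, and the level of Itgav relative to that of Itga1 was 2.16 and 18.3.

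In order of their mean levels, Itgb3, Itga1, Itga5, Fn1 and Itgb1 ran WT OIR, Atf6 KO OIR, PBS and Ceapin-A7. Only the step from Atf6 KO OIR to PBS, of 1.71-fold for Itgb1 to 4.92-fold for Itga1, had libraries that did not overlap. Itga6 had the same order with overlap at every step. Itgb5 had ranges apart between Atf6 KO OIR and Ceapin-A7, which came next. Both steps join groups that differ in genotype, age, oxygen history and injection, and these cannot be told apart. The share of all genes with ranges apart was not computed for either step, so nothing is read from them. For Vtn, Itgav and Itgb8, all neighbours in the order overlapped.

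Vessel markers were higher at P17 as well. Of 10 endothelial markers 8 had an adjusted p under 0.05 and were higher in WT OIR than in PBS, with a median log2 difference of 1.66 over the list. All 8 mural markers did so, with a median of 1.65, and 29.6% of all genes did. Their summed FPKM was 119 to 192 (endothelial) and 99.7 to 147 (mural) in WT OIR, against 76.3 to 96.5 and 28.03 to 37.1 in PBS. The medians were 1.702 and 1.64 without PBS replicates 4 and 5. Among other integrin subunits, 7 of 15 were higher at an adjusted p under 0.05 and 0 lower. Among activators and adaptors, 13 of 25 were higher and 3 lower, and among other ligands 10 of 16 were higher and 2 lower. Without PBS replicates 4 and 5, 8 other subunits were higher and 0 lower, and 11 activators and adaptors were higher and 3 lower. The counts of other ligands stayed at 10 and 2. Of all genes, 29.6% were higher and 29.4% lower at this threshold, 59% in all, and nothing is read from these counts. The platelet sum was 18.3 to 21.7 FPKM in WT OIR and 8.35 to 13.83 in PBS. The part of vessels and platelets in these differences was not tested.

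Inside the groups, some members varied together. For each library the deviation of log2(FPKM + 0.1) from its group mean was taken, and correlations over the 20 libraries are descriptions without a p, since libraries share depth and tissue composition. Fibronectin and its receptor subunit Itga5 had Pearson's r = 0.80 and Spearman's rho = 0.72. Other genes were closer to each, such as Slc12a4 to Fn1 (r = 0.95) and Creb3l1 to Itga5 (r = 0.91). The share of all genes with an r this high was not computed, so no link of ligand and receptor is read from it. Itgav and Itgb1 went together more closely than Fn1 and Itga5, with r = 0.87 and rho = 0.82. Itgb3 had r = 0.66 with Itga1, 0.61 with Fn1 and 0.54 with Itgav. Itgb5 and Itgb8, both partners of Itgav, had r = −0.52. Without PBS replicates 4 and 5, r was 0.76 for Fn1 and Itga5 and 0.86 for Itgav and Itgb1.

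**Figure D4:**
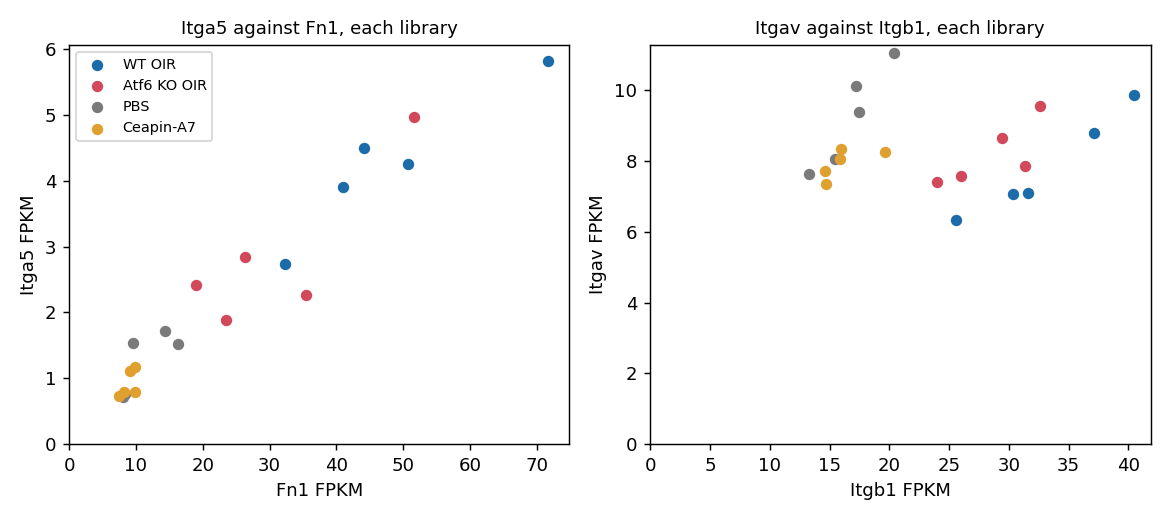
FPKM of Itga5 against Fn1 (left) and of Itgav against Itgb1 (right), with 1 point per library and colours for the 4 groups, on linear axes from 0. Itga5 and Fn1 lie along 1 band from Ceapin-A7 and PBS to WT OIR, and Itgb1 is higher in each library of the P17 groups than in any of the P30 groups.

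The same deviations were compared with summed markers of cell types. Vtn followed the rod sum with r = 0.90 and rho = 0.86, and r was 0.72 without PBS replicates 4 and 5. Itgav and Itgb1 went against the rod sum, with r = −0.75 and −0.63, and −0.82 and −0.74 without these libraries. Itga1 and Fn1 had r = −0.67 and −0.60 with the rod sum, and −0.75 and −0.41 without these libraries. For Itgb3, Itga6 and Itga5, r with the rod sum was −0.38, −0.24 and −0.43, and −0.64, −0.67 and −0.17 without these libraries. Itgb5 had r = 0.25 with it, and 0.10 without these libraries. Itga5 and Fn1 had r = 0.69 and 0.60 with the endothelial sum, and Itgb3 had r = 0.59 with the mural sum and 0.40 with the endothelial sum. Leaving out PBS replicates 4 and 5, Itgb3 had 0.64 with the mural sum and 0.37 with the endothelial sum. Itgb8 had r between −0.23 and 0.29 with these sums and those of glia, microglia and pigment epithelium, and 0.54 with that of lens genes. Without PBS replicates 4 and 5 these values ran from −0.57 (rods) to 0.28 (pigment epithelium), and r with lens genes was 0.42.

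**Figure D5:**
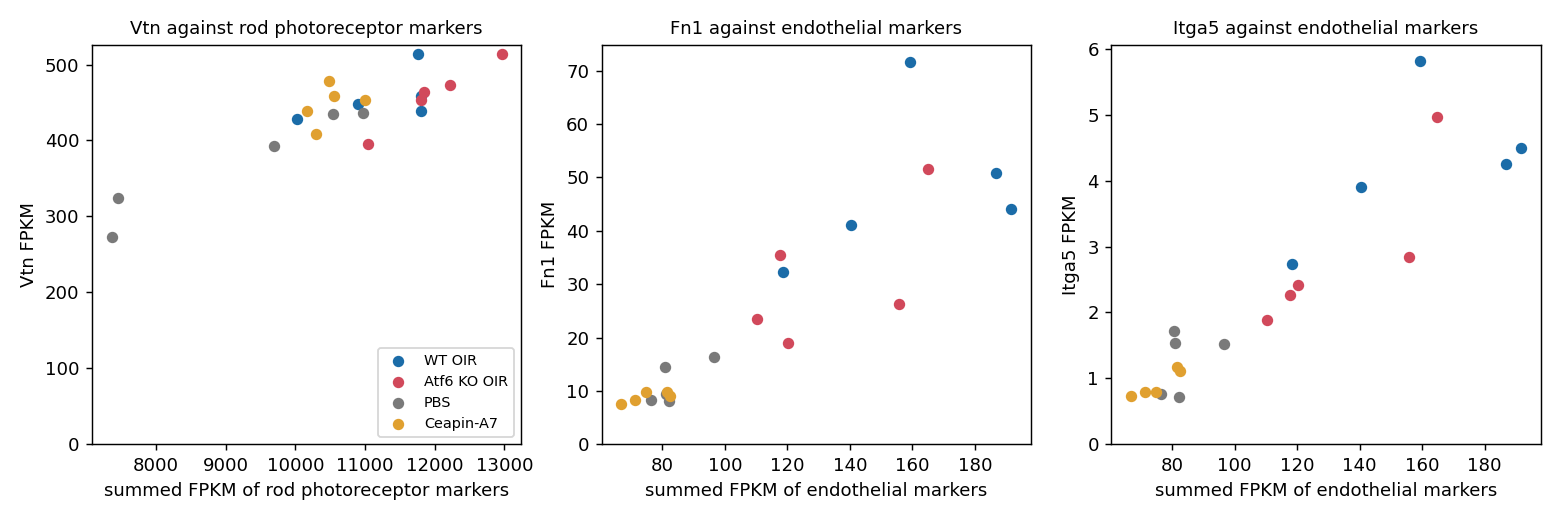
FPKM of Vtn against the summed FPKM of 7 rod markers, and of Fn1 and Itga5 against that of 10 endothelial markers, with 1 point per library (y axes from 0, x axes not from 0). PBS replicates 4 and 5 lie apart at the low end for Vtn, and the P30 libraries lie at the low end for Fn1 and Itga5.

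Among genes with a mean of at least 1 FPKM (12997 for Itgb3, 12996 for the others), the 3 with the highest r of deviations were taken for each member. For Itgb3 they were Pdgfb (r = 0.83, rho = 0.85), the growth factor by which endothelium recruits pericytes, H2-Ab1 (r = 0.81) and Gys1 (r = 0.80). For Fn1 they were Slc12a4 (r = 0.95, rho = 0.95), Notch1 and Rela. For Itga5 they were Creb3l1 (r = 0.91, rho = 0.87), Midn and Nectin2. For Itga1 they were Synm (r = 0.81, rho = 0.81), Alpk1 and the vessel laminin chain Lama4. For Itga6, a laminin receptor subunit, they were the basement membrane gene Nid1 (r = 0.91, rho = 0.84), Ezr and Pxdn. For Itgb1 they were Gng12 (r = 0.91, rho = 0.92), Tpm4 and Itgav, and for Itgav they were Mpp6 (r = 0.88, rho = 0.89), Itgb1 and Tpm4. For Itgb5 they were Spon1 (r = 0.81, rho = 0.82), Nr2f2 and Pacsin2, and for Itgb8 they were Cadm2 (r = 0.85, rho = 0.81), Zbtb41 and Gm7697. For Vtn all 3 were genes of photoreceptors, Prph2 (r = 0.91, rho = 0.84), Rtbdn and Pde6g, and r with Prph2 was 0.73 without PBS replicates 4 and 5. As the highest of many, these values carry no p.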

How the data were processed

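The data are FPKM of 20 whole-retina libraries, 5 in each of 4 groups, taken from the sample labels. Stranded mRNA libraries were sequenced on DNBSEQ with paired-end reads of 100 bases. The authors aligned the reads to GRCm39 with HISAT2 2.0.4, estimated expression with RSEM 1.2.18 and deposited FPKM per gene to 2 decimals. FPKM counts fragments relative to transcript length and to the mapped fragments of the library. DESeq2 1.4.5 is the authors' tool for differential expression and was not used here, because no counts were used. The tables hold no depth, so no counting interval was computed, and 2 decimals limit genes near 0.1 FPKM. Each of the 4 groups has a table of its own.

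Libraries were rescaled by the median of their ratios to the geometric mean library. Genes whose mean exceeded 0.1 FPKM entered limma 3.58.1 (eBayes with trend, R 4.3.3) as log2(FPKM + 0.1). Benjamini-Hochberg adjustment ran across every gene in the fit. Each experiment was fitted alone, with 10 libraries, and WT OIR against PBS in a fit of all 20. Fold changes on the log2(FPKM + 0.1) scale understate those of low genes. Shares were tested by exact permutation with SciPy 1.17.1.

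The members and lists were chosen with earlier results of these data known. Named were all 10 members, up to 3 genes of each integrin list with the smallest unadjusted p (none passed an adjusted p of 0.05), the 3 genes most like each member, and markers where they stand beside a result. Itga3, Erg, Emcn and Eng were named after their values were seen. In simulated data for Ceapin-A7 against PBS, 96% of 200 genes changed 2-fold were called, and 0.112% of the unchanged genes among 15329. The changed genes were drawn only among those with a positive mean log2(FPKM + 0.1), which Itgb3 and Itga1 did not have there. Noise was drawn for each gene and library on its own, so no shift shared by the genes of a library was simulated. The 96% thus does not carry over to these 2 members or to data with such a shift. Alternatives were other pseudocounts, filters, scalings and limma settings, a replicate block, and leaving out libraries. A GC correction, from GRCm38 transcripts, and leaving out PBS replicates 4 and 5 were chosen after seeing the data. Coordinates are given only for RefSeq sequences on GRCm38.p6. A further gene of the rod list is not reported here and was left out of its sums.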

Additional observations from a re-analysis of the deposited data

Results flagged for a closer look

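Of 56 sets of 5 libraries that were checked for a library far from the others, 40 of FPKM of a member and 16 of shares of a beta subunit, 2 had such a library, and chance flags about 1 in 20. Itga6 was listed at 4.03 FPKM in PBS replicate 1 and between 2.04 and 2.6 FPKM in the other PBS libraries. Itgb1 was listed at 19.64 FPKM in Ceapin-A7 replicate 3 and between 14.59 and 15.95 FPKM in the other Ceapin-A7 libraries. Ceapin-A7 replicate 3 also had the lowest rough relative depth, 0.714 from 24 low genes. It had the highest mural sum of its group as well, 63.3 FPKM against 32.03 to 37.6 FPKM. The part of either in the value of Itgb1 was not tested.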

How the results depend on the processing

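In OIR, 214 of 219 log2 differences of single members under 22 alternatives had the sign of the reported value, and the 5 others were of Vtn, which lay between −0.049 and 0.099. The difference of Itgb3 ran from −0.89 to −0.33. Members with an unadjusted p of at most 0.05, 5 as reported, numbered 3 without the trend of limma and 2 to 6 without single libraries (2 or 3 without WT OIR replicate 1, 2 or 3 or Atf6 KO OIR replicate 1, 2, 3 or 4), and 3 had an adjusted p under 0.05 with array weights. Genes with an adjusted p under 0.05 numbered 5 as reported, 9 without a filter, 11 in a fit of all 20 libraries and 2769 with array weights. Other integrin subunits with an unadjusted p of at most 0.05, 5 as reported, numbered 3 with quantile normalization, 3 above a mean of 1 FPKM and 2 to 7 without single libraries.

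After Ceapin-A7, 202 of 228 had the reported sign under 23 alternatives, and 0 members had an adjusted p under 0.05 in these. Members with an unadjusted p of at most 0.05, 3 as reported, numbered 1 with array weights, 1 without PBS replicates 4 and 5 and 1 to 3 without single libraries (1 without PBS replicate 4 or 5 or Ceapin-A7 replicate 2 or 4). Members close to 0 changed sign. Rescaled to the same sum, Itga6 was at −0.022 and Itgb5 at −0.027. With array weights, Itga1 was at 0.059, Itga6 at −0.016 and Itgb5 at −0.015. Without PBS replicates 4 and 5, Itga1 was at 0.12, Itga6 at −0.018, Itgb1 at 0.053, Itgb5 at −0.044 and Fn1 at 0.021. Without single libraries, log2 differences ran from −0.23 to 0.070 for Itgb3, −0.11 to 0.031 for Itga1, −0.056 to 0.18 for Itga6, −0.12 to 0.021 for Itgb1 and −0.043 to 0.090 for Itgb5, and differences of shares from −0.531 to 1.79 percentage points for Itgb1, −0.0789 to 0.0677 for Itgb3, 0.814 to 3.29 for Itgb5 and −3.78 to −1.98 for Itgb8. The share of Itgb5 was at −0.013 points without PBS replicates 4 and 5.

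For WT OIR against PBS, 328 of 329 had the reported sign under 33 alternatives. Itgb8 was at 0.013 once the GC trend was removed. Members with an adjusted p under 0.05, 9 as reported, numbered 7 to 9 without single libraries and 7 without PBS replicates 4 and 5. They also numbered 7 once the GC trend was removed and 7 with WT OIR and PBS libraries only. Under the other alternatives the count was 8 or 9, and Itgb3 was not tested when genes needed a mean above 1 FPKM.

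The main fits did not pair libraries by replicate number. Same-numbered libraries had correlations of −0.258 to 0.21 in OIR and −0.217 to 0.31 after Ceapin-A7. Of 10 replicate numbers, 1 correlated best with its own number (replicate 1 of PBS and Ceapin-A7, 0.31). Such correlations cannot exclude a shared litter or batch, so whether the numbers pair libraries is not known. With a replicate block, 4 members in OIR and 3 after Ceapin-A7 had an unadjusted p of at most 0.05, and 8 had an adjusted p under 0.05 for WT OIR against PBS. The causes of these changes were not tested. Values near 0.1 FPKM limit the fold change of Itgb3.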
